A study of Mus musculus with 3072 samples.

Results

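The lysosomal cathepsins and legumain were followed in single microglia, the resident macrophages of the brain. They are 10 genes (Ctsa, Ctsb, Ctsc, Ctsd, Ctsf, Ctsh, Ctsl, Ctss, Ctsz and Lgmn) of the 29474 in the count table, chosen by name, and all 10 were in the table. Their levels are given in 6 groups of mice and, within each group, in cells with a Cst7 read (Cst7-positive) and without one (Cst7-negative). Cst7 encodes cystatin F, an inhibitor of lysosomal cysteine cathepsins.

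Lysosomal proteases are made as inactive precursors, are sorted to the endolysosome and are activated there at acid pH. Ctsb, Ctsf, Ctsh, Ctsl, Ctss and Ctsz encode cysteine cathepsins, and Ctsc encodes dipeptidyl peptidase I, a cysteine protease that activates other proteases. Ctsd encodes an aspartic protease, Ctsa a serine carboxypeptidase that also stabilises lysosomal neuraminidase, and Lgmn the asparaginyl endopeptidase legumain, which processes cathepsin precursors. Microglia rich in lysosomal genes are known from the surroundings of amyloid plaques, where Cst7 is one of the genes that mark them.

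Of 17-month-old APP/PS1 mice, cortex and hippocampus were taken. The other groups were the cortex and the hippocampus of APP/PS1-ApoeKO mice and the cortex of C57BL/6 and of C57BL/6-ApoeKO mice, each at 18 months, and all mice were male. APP/PS1 mice carry the APPswe and PS1dE9 transgenes and form amyloid. ApoeKO mice are homozygous for an Apoe null allele, and Apoe encodes the lipid carrier apolipoprotein E. Single cells were sorted as CD11b+ and DAPI- and read with a modified SmartSeq2 protocol. No animals are named in the labels, and a group therefore counts as 1 sample: a ratio between 2 groups has no replicate check and no p-value, and the tests below measure the spread between groups of wells. The ApoeKO comparisons in APP/PS1 mice also differ in age and in lane, and the comparison of APP/PS1 with C57BL/6 cortex does so too, so that genotype, age and lane cannot be told apart there. APP/PS1-ApoeKO cortex shares 0 lanes with C57BL/6-ApoeKO cortex and 0 with APP/PS1-ApoeKO hippocampus, so that lane cannot be told apart from amyloid or tissue in those comparisons either. APP/PS1 cells of 18-month-old mice were not analysed here.

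Counts were used for 1713 cells, and the median cell of a group held 442917 to 765704 reads. All 8 microglia markers had reads in each group, at a summed 41190 to 50306 RPM, which is a gene's share of the reads in a sum, scaled to the same total in each group. Apoe was at 0.0669 to 2.96 RPM in the 3 ApoeKO groups and at 485 to 13406 RPM in the others. The summed markers of 9 other cell types were at most 67.5 RPM in any group, for oligodendrocytes in C57BL/6-ApoeKO cortex. Ribosomal RNA took the smallest share of reads in the median cell in APP/PS1-ApoeKO cortex (8.02%) and the largest in APP/PS1 cortex (13.7%). The part of this share in the ratios between groups was not tested.

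The 250 bases before each member's start were searched for the E-box of the lysosomal transcription factors TFEB and TFE3. RefSeq (GRCm38.p6) gave such windows for 8 members and none for Ctsb or Ctsh, which could not be searched. The E-box letters CACGTG, which read the same on both strands, stood in windows of 5 of the 8 (5 of 10 windows, since Ctsa and Lgmn have more than 1 start), against 6.02% of all 32851 windows of this length. The longer form TCACGTGA, which contains the E-box, stood in windows of 2 members, Ctsd and Ctsa, against 0.785% of all windows. The letters GAGGAAGT, bound by the macrophage factor PU.1 and searched on both strands, stood in the window of Ctsc alone, against 2.44% of all windows. The stretches around the matches are shown 5′ to 3′ on the gene's strand, with the E-box or its longer form in capitals.
Ctsd, chr7:142387908-142387937, minus strand: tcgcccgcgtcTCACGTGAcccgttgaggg
Ctsa, chr2:164833749-164833772, plus strand: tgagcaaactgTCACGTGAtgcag
Ctsl, chr13:64370740-64370767, minus strand: gcgttagaagcCACGTGctgatctaaat
Ctsf, chr19:4855075-4855102, plus strand: accccgtggtcCACGTGcctcgcgtaaa
Lgmn, chr12:102439125-102439152, minus strand: ggaatgtctgtCACGTGgtccattttat
Positions are counted from a RefSeq start, the second listed for Ctsa and the first listed for Lgmn. The match lay 99 to 92 bases before this start in Ctsd, 13 to 6 in Ctsa, 79 to 74 in Ctsf and 49 to 44 in Lgmn, and further away in Ctsl. Transcripts of a gene can start upstream of it: the windows of Ctsd, Ctsa, Ctsf and Ctsl overlap exons and UTRs of the same gene, and the matches in Ctsd, Ctsa, Ctsl and Lgmn lie inside the gene's GENCODE span. Ctsd held another E-box near the far end of its window. The windows of Ctsz, Ctss and Ctsc held no E-box. These are letter matches, and binding was not measured. Their relation to the members' levels or correlations was not tested.

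Ctss was the most abundant member per length of exon in each of the 6 groups, and Ctsf the least. Per kilobase of exons, Ctss was read at 8879 to 10193 RPM (median of the groups 9412), in 100% of cells. Ctsd followed with a median of 2949 RPM per kb (2339 to 3914), then Lgmn with 2077 (1853 to 2362) and Ctsz with 1909 (1742 to 2791). Their ranges over the groups overlapped, but Ctsd was the highest of the 3 within each of the 6 groups. Ctsz was above Lgmn in both APP/PS1 groups and below it in the other 4. Ctsb had a median of 631 RPM per kb (521 to 868) and Ctsa 447 (370 to 540), and Ctsb was above Ctsa within each group. Ctsl (median 245.5 RPM per kb), Ctsh (205.7), Ctsc (128.4) and Ctsf (73.1) formed the lower end, and Ctsl and Ctsh overlapped. Ctsf reads were found in 48.5% to 56.6% of cells, and its coefficient of variation between cells was 1.345 to 1.532, against 0.382 to 0.448 for Ctss.

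**Figure D1:**
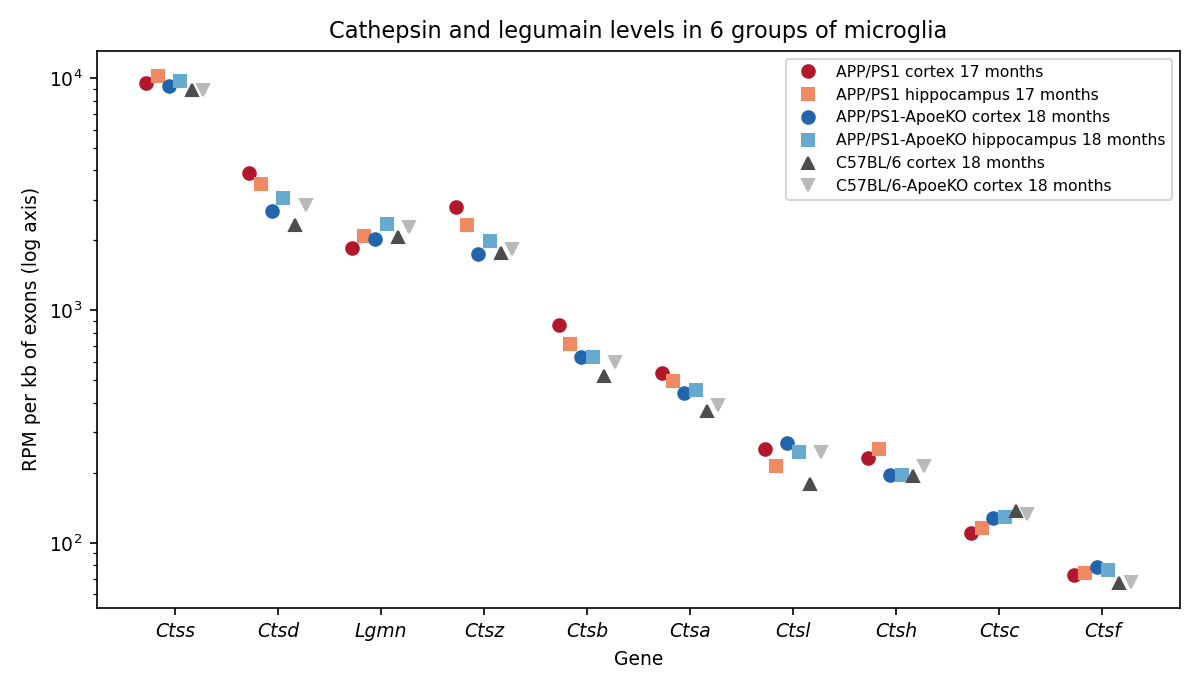
Level of each member in the 6 groups, as RPM per kb of exons on a log axis; each point is 1 group, summed over its cells. Ctss sits highest at 8879 to 10193 and Ctsf lowest, and the group points of a gene lie close together beside the distances between genes.

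Among the members, Ctsd, Ctsb and Ctsz differed most between the groups. Ctsd stood at 9202 RPM in APP/PS1 cortex, 8239 in APP/PS1 hippocampus, 7158 in APP/PS1-ApoeKO hippocampus, 6706 in C57BL/6-ApoeKO cortex, 6280 in APP/PS1-ApoeKO cortex and 5499 in C57BL/6 cortex. Ctsb followed a like order, with 5253, 4341, 3826, 3634, 3815 and 3152 RPM in the same groups. Both were highest in APP/PS1 mice with Apoe and lowest in C57BL/6 mice. The labels split each group's wells by plate number, and these well parts give a spread within a group. In APP/PS1 cortex the parts ran from 4451 to 5879 RPM for Ctsb, and in C57BL/6 cortex from 2789 to 3320, without overlap. For how many of all genes the parts of 2 groups do not overlap was not counted. The Ctsd parts of APP/PS1 cortex (8940 to 9800 RPM) overlapped those of APP/PS1 hippocampus (7475 to 9279), so these neighbours did not separate beyond their spread.

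Ctsz, an exopeptidase, was at 4022 RPM in APP/PS1 cortex, 3350 in APP/PS1 hippocampus, 2865 in APP/PS1-ApoeKO hippocampus, 2636 in C57BL/6-ApoeKO cortex, 2535 in C57BL/6 cortex and 2510 in APP/PS1-ApoeKO cortex. Its well parts in APP/PS1 cortex (3826 to 4198 RPM) lay above those of each other group, the nearest being APP/PS1 hippocampus (3102 to 3601). Ctsa was highest in APP/PS1 cortex, at 2547 RPM, and lowest in C57BL/6 cortex, at 1745. Ctsl had another order: APP/PS1-ApoeKO cortex was highest at 1741 RPM, and 1641, 1597, 1589 and 1393 RPM were read in APP/PS1 cortex, C57BL/6-ApoeKO cortex, APP/PS1-ApoeKO hippocampus and APP/PS1 hippocampus. C57BL/6 cortex stood below these 5 groups at 1160 RPM. Its well parts (1047 to 1239 RPM) lay below those of each other group, the nearest being APP/PS1 hippocampus (1255 to 1474).

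The remaining members differed less or in another direction. Ctss was at 12057 to 13842 RPM, a 1.15-fold range, with C57BL/6-ApoeKO cortex lowest and APP/PS1 hippocampus highest. Ctsc was highest in C57BL/6 cortex, at 799 RPM, and lowest in APP/PS1 cortex, at 638. Lgmn was lowest in APP/PS1 cortex, at 4304 RPM, and highest in APP/PS1-ApoeKO hippocampus, at 5487. Its well parts in APP/PS1 cortex (3919 to 4595 RPM) overlapped those in C57BL/6 cortex (4477 to 5052). Ctsh, an aminopeptidase, ran from 868 RPM in C57BL/6 cortex to 1144 in APP/PS1 hippocampus, and Ctsf from 340 to 395 RPM.

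Amyloid in mice with Apoe was compared in the cortex, APP/PS1 against C57BL/6. Ctsd was 1.67-fold higher in APP/PS1 cortex (95% counting interval 1.67 to 1.68), Ctsb 1.67-fold (1.66 to 1.67) and Ctsz 1.59-fold (1.58 to 1.59). These 3 members passed the 1.5-fold bound that counts as called, and no member was lower by that bound. The background is the 6009 genes that reached 20 RPM and were read in 10% of cells or more on either side, of which 7.72% were called higher and 14.8% lower. The median log2 ratio was 0.38 over the members and -0.11 over all these genes. Ctsa (1.46-fold) and Ctsl (1.42-fold) were just under the bound, and Ctsc (0.799) and Lgmn (0.897) were below 1. In the median cell of each group the log2 ratio was 0.77 for Ctsz, 0.66 for Ctsa, 0.56 for Ctsb and 0.49 for Ctsd, so that by cell medians Ctsb and Ctsd missed the 1.5-fold bound and Ctsa passed it. Intervals cover counting error alone, and since SmartSeq2 reads carry no molecular identifiers they are narrower than the true error. With TMM factors, which rescale the groups to a common level of most genes, each ratio was 0.12 higher on the log2 scale, and Ctsa and Ctsl passed the bound too, giving 5 members.

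Amyloid in mice without Apoe was compared in APP/PS1-ApoeKO against C57BL/6-ApoeKO cortex. Here 0 of 10 members differed 1.5-fold, where 13.7% of 6050 genes were called higher and 8.56% lower. Ctsb had a ratio of 1.05 (1.04 to 1.05), Ctsd 0.936 and Ctsz 0.952, and the member median was 0.00 on the log2 scale (-0.003). With TMM factors Ctsb was at -0.02 on that scale, below the level without amyloid. Whether these ratios differ from those with Apoe was not tested.

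Loss of Apoe under amyloid was compared by setting APP/PS1-ApoeKO mice against those with Apoe. In cortex Ctsz was the only member past the bound, at 0.624 (0.621 to 0.627) of its level with Apoe, and 8.37% of 6090 genes were called lower and 24.1% higher. Ctsd was at 0.682 and Ctsb at 0.726, while Ctsc (1.16), Lgmn (1.10), Ctsf (1.08) and Ctsl (1.06) were above 1. This comparison depended on the scaling. TMM factors lowered each ratio by 0.25 on the log2 scale, so that Ctsb, Ctsd and Ctsz passed the bound and the 4 members above 1 went to below 1. The member median went from -0.14 to -0.40. On the knockout side 1 lane supplied every cell used. Further cells of another lane, for which the labels hold no depth, gave a median of -0.26 when added.

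In hippocampus 0 of 10 members differed 1.5-fold between APP/PS1-ApoeKO and APP/PS1, against 12.9% of 5914 genes higher and 9.32% lower. Ctsh had the lowest ratio, 0.774, and Ctsl the highest, 1.14. Ctsd stood at 0.869, Ctsb at 0.881 and Ctsz at 0.855. The median cell reversed the direction of Ctsb, with 3436 RPM without Apoe and 3021 with it. The cortex and hippocampus contrasts use different groups on both sides.

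Loss of Apoe without amyloid, C57BL/6-ApoeKO against C57BL/6 cortex, had 8 of 10 members above 1 and 0 past 1.5-fold, against 9.35% of 5998 genes higher and 7.82% lower. Ctsl had the largest ratio, 1.38 (1.37 to 1.38), followed by Ctsd (1.22) and Ctsb (1.15). These 2 groups shared both lanes. Within the lanes the Ctsl log2 ratio was 0.45 and 0.48, that of Ctsd 0.37 and 0.21, and that of Ctsb 0.24 and 0.17. The member median was 0.22 in one lane and -0.01 in the other.

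Between tissues, 0 of 10 members differed 1.5-fold in APP/PS1 mice, where 7.79% of 5799 genes were higher in hippocampus and 6.45% lower. The same count of 0 was found in APP/PS1-ApoeKO mice, where 7.13% of 5975 genes were higher and 15.8% lower. Ctsb and Ctsz were lower in the hippocampus of APP/PS1 mice (0.826 and 0.833), and Lgmn was higher (1.13). Within the 2 lanes that these tissues shared, the Ctsb log2 ratio was -0.08 and -0.45. In APP/PS1-ApoeKO mice Ctsb stood at 1.00, Ctsz at 1.14 and Lgmn at 1.16. TMM factors raised each ratio there by 0.18 on the log2 scale, which took the members above 1 from 8 to 10. Several of the 7 comparisons share a group, so their ratios are not independent.

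A fit over the 6 group sums with terms for Apoe knockout, amyloid and hippocampus (edgeR quasi-likelihood, Benjamini-Hochberg over 18171 genes) called 0 members for any term, and 0 had an unadjusted p below 0.05. DESeq2 called 0 members as well, with 3, 1 and 1 members at an unadjusted p below 0.05 for amyloid, knockout and hippocampus. Of the 18171 genes, 1833, 2704 and 1468 were below it in DESeq2, and 808, 1383 and 573 in edgeR, in that order. The share of all genes called by edgeR was 0% for amyloid and hippocampus and 0.011% higher and 0.0165% lower for the knockout. The lowest adjusted p of a member was that of Ctsz for the knockout, 0.682, with a log2 change of -0.41 (SE 0.20). The amyloid term was 0.42 (SE 0.23) for Ctsb and 0.37 (SE 0.17) for Ctsa. Without APP/PS1 cortex the amyloid terms of Ctsd, Ctsh, Ctss and Ctsz changed sign, and without C57BL/6 cortex those of Ctsd and Ctsh did.

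Cells with a Cst7 read made up 26.1% of APP/PS1 cortex (81 cells), 12.8% of APP/PS1 hippocampus (35), 14.8% of APP/PS1-ApoeKO cortex (25) and 11.8% of APP/PS1-ApoeKO hippocampus (38). The share was 12.5% in C57BL/6-ApoeKO cortex (39 cells) and 2.45% in C57BL/6 cortex (8 cells, 95% exact interval 1.06 to 4.78). With each cell thinned to 100000 reads the shares were between 2.45% and 24.1%. The median depth was higher in Cst7-positive than in Cst7-negative cells except in C57BL/6 cortex. It was 634298 against 609612 reads in APP/PS1 cortex, 629550 against 574454 in APP/PS1 hippocampus and 712390 against 771371 in C57BL/6 cortex. In APP/PS1 cortex ribosomal RNA took 14.97% of the reads of the median Cst7-positive cell and 13.38% of the median Cst7-negative cell. Its share was higher in Cst7-positive cells in 5 of 6 groups. Mitochondrial mRNA took more of the reads of the median Cst7-positive cell in 6 of 6 groups, for example 0.953% against 0.772% in APP/PS1 cortex and 1.37% against 0.881% in C57BL/6 cortex. More genes were detected in the median Cst7-positive cell in 6 of 6 groups too, for example 2306 against 2198 in APP/PS1 cortex. The part of these 3 measures in the Cst7 differences was not tested.

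Ctsb, Ctsd, Ctsz and Ctsl were higher in Cst7-positive than in Cst7-negative cells in 6 of 6 groups. Ctsb was read at 8673 against 3983 RPM in APP/PS1 cortex and 9501 against 3525 in APP/PS1 hippocampus. It was at 5097 against 3590 RPM in APP/PS1-ApoeKO cortex, 5237 against 3636 in APP/PS1-ApoeKO hippocampus, 4081 against 3131 in C57BL/6 cortex and 4616 against 3483 in C57BL/6-ApoeKO cortex. The 6 Cst7-positive values, 4081 to 9501 RPM, did not overlap the 6 Cst7-negative ones, 3131 to 3983. How many of all genes separate in this way was not counted. The ratio was 2.18 and 2.70 in the APP/PS1 groups and 1.30 to 1.44 in the other 4.

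Ctsd was at 14119 against 7377 RPM in APP/PS1 cortex and 16121 against 6991 in APP/PS1 hippocampus, ratios of 1.91 and 2.31. In the order APP/PS1-ApoeKO cortex, APP/PS1-ApoeKO hippocampus, C57BL/6 and C57BL/6-ApoeKO cortex it was at 8410 against 5905, 9644 against 6823, 6508 against 5476 and 8797 against 6385 RPM. The 2 classes overlapped here, since the C57BL/6 positive sum lay below the APP/PS1 negative ones. Ctsz had ratios of 1.57 and 1.93 in APP/PS1 cortex and hippocampus and 1.17 to 1.36 in the other groups. Ctsl ran from 1.02 in C57BL/6 cortex, where its interval of 0.991 to 1.04 includes 1, to 1.91 in APP/PS1 hippocampus.

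Single cells showed the same order for Ctsb and Ctsd, for which the median Cst7-positive cell lay above the median Cst7-negative cell in 6 of 6 groups. In APP/PS1 hippocampus 88.6% of Cst7-positive cells were above the Cst7-negative median for Ctsb, 91.4% for Ctsd and 94.3% for Ctsz. In C57BL/6 cortex these shares were 50%, 75% and 37.5% of 8 cells. The Ctsz median of the C57BL/6 positive cells (1738 RPM) was below that of the negative cells (2136), although the sum was higher, and the C57BL/6-ApoeKO medians (2278 and 2333 RPM) had that order too.

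**Figure D2:**
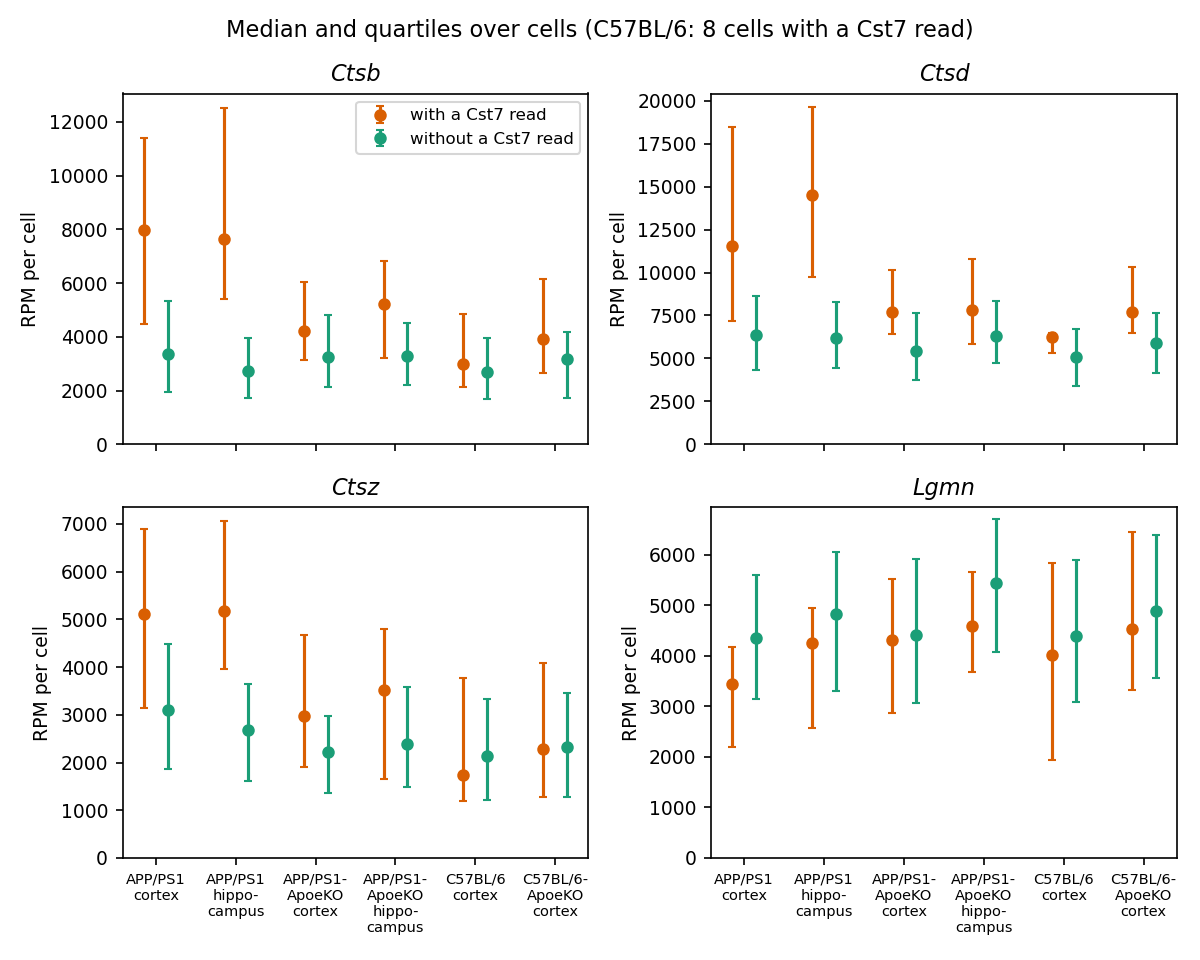
Ctsb, Ctsd, Ctsz and Lgmn per cell, in RPM on a linear axis from 0; points are medians over the cells of a group and bars reach from the lower to the upper quartile. Cst7-positive cells are higher for Ctsb and Ctsd in 6 of 6 groups, most in both APP/PS1 groups, and Lgmn is lower in them.

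Lgmn had the opposite direction. It was read at 3613 against 4560 RPM in APP/PS1 cortex, 4000 against 4991 in APP/PS1 hippocampus and 4304 against 4787 in APP/PS1-ApoeKO cortex. In APP/PS1-ApoeKO hippocampus it was at 4609 against 5606 RPM, in C57BL/6-ApoeKO cortex at 4872 against 5348 and in C57BL/6 cortex at 4996 against 4791. Lgmn was thus lower in Cst7-positive cells in 5 of 6 groups, at 0.792 to 0.911 of the negative level, and at 1.04 in C57BL/6 cortex, where the median cell was lower all the same (4023 against 4400 RPM). Of the Cst7-positive cells of APP/PS1 cortex, 19.8% were above the Cst7-negative Lgmn median.

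Ctsa was higher in Cst7-positive cells in the 4 groups with amyloid, with ratios of 1.204 to 1.666, and at 0.863 and 0.952 in C57BL/6 and C57BL/6-ApoeKO cortex. Ctss, which processes the invariant chain of MHC class II, was at 0.994 to 1.25 and above 1 in 5 of 6 groups. Ctsh was above 1 in 5 of 6 groups, at 0.933 to 1.32. Ctsc was at 0.724 in APP/PS1 cortex and 1.52 in C57BL/6-ApoeKO cortex, and above 1 in 2 of 6 groups. Ctsf was above 1 in 2 of 6 groups as well. The 10 members together took 5.27% of the reads of Cst7-positive cells and 3.80% of Cst7-negative cells in APP/PS1 cortex, and 5.98% and 3.75% in APP/PS1 hippocampus. In the other 4 groups the shares were 3.85% to 4.32% and 3.28% to 3.77%.

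**Figure D3:**
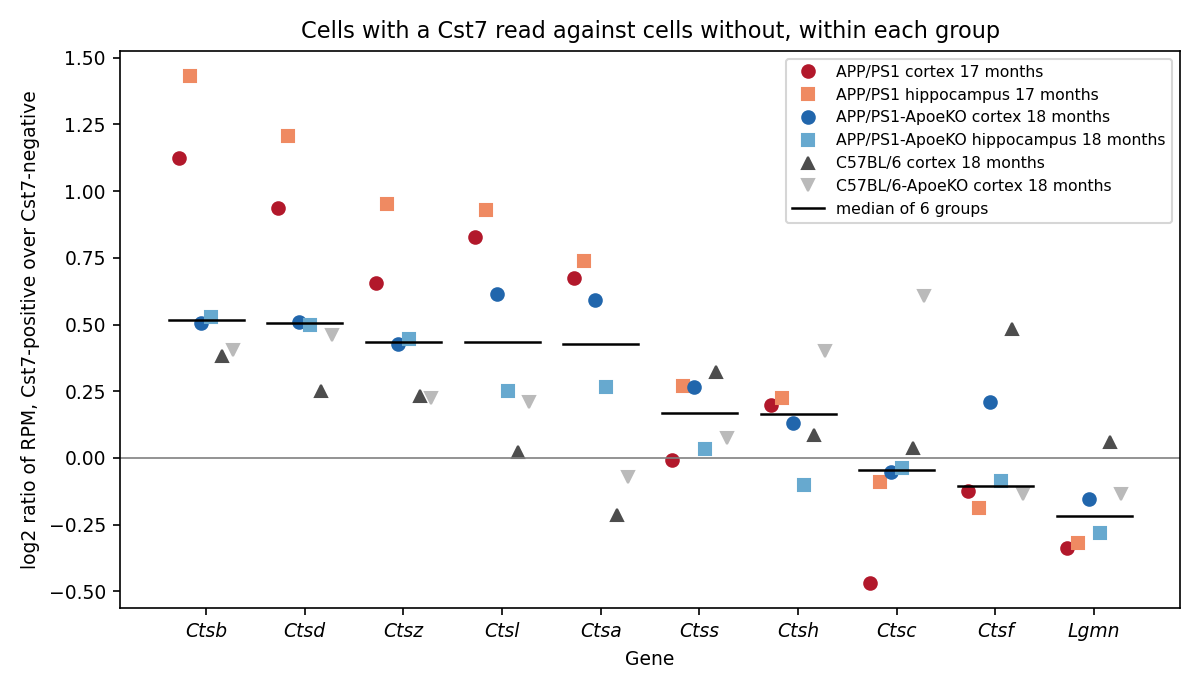
The log2 ratio of RPM in Cst7-positive over Cst7-negative cells for each member; each point is 1 group and the line is the median of 6 groups. Ctsb, Ctsd, Ctsz and Ctsl lie above 0 in each group, with the 2 APP/PS1 groups highest, and Lgmn lies below 0 in 5 of 6.

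In the test over the 12 sums, with the group as the block (edgeR quasi-likelihood, Benjamini-Hochberg over 13077 genes), 0 of 10 members were called at an adjusted p of 0.05 and 7 had an unadjusted p below 0.05. So had 1280 of the 13077 genes. Of all genes 0.00765% were called higher and 0% lower: 1 gene, the MHC class I heavy chain H2-D1 (log2 change 0.92, SE 0.09, adjusted p = 0.0337). The edgeR log2 change was 0.82 for Ctsb (SE 0.18, adjusted p = 0.316), 0.74 for Ctsd (SE 0.16, adjusted p = 0.295), 0.58 for Ctsz (SE 0.14, adjusted p = 0.322) and 0.57 for Ctsl (SE 0.17, adjusted p = 0.334). Ctss had 0.26 (SE 0.07, adjusted p = 0.334) and Lgmn -0.10 (SE 0.06, adjusted p = 0.670) in the same edgeR fit. DESeq2 on the same sums called 4 members, Ctsd (adjusted p = 0.00186), Ctsb (0.00247), Ctsz (0.00501) and Ctsl (0.0206), where it called 10.4% of genes. Sums per group and lane count the lanes of a group as separate samples, although the labels name no animals. On these sums edgeR called Ctsb (adjusted p = 0.0155), Ctsd (0.0190) and Ctsz (0.0379) and 2.63% of genes. Limma called 0 members and 0.367% of genes, 3 higher and 45 lower. The members' calls thus differed by tool and by how wells were summed. On simulated counts of 12685 genes this test recovered 3 of the 100 genes set to differ 2-fold. It recovered 31 of the 100 set to differ 8-fold. Apart from the set differences, a simulated gene had the same mean share of reads in each group, unlike the data. Recovery at the levels and standard errors of the members was not tested.

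The median log2 change was 0.34 over the members and -0.62 over all genes tested in this edgeR fit. Over the genes of at least 300 RPM, a bound chosen after seeing the data, 49.9% were positive and the median was 0.00 (-0.0006), against 9 of 10 members. The direction of Ctsa, Ctsb, Ctsd, Ctsh, Ctsl, Ctss, Ctsz and Lgmn held in each of 16 alternative fits, among which the fit to groups with at least 20 positive cells and the fit without C57BL/6 cortex are the same. That of Ctsc changed with library totals alone and without C57BL/6-ApoeKO cortex, and that of Ctsf with sums per lane.

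The Cst7 difference itself was compared between groups with and without amyloid, and with and without Apoe, by interaction terms. In edgeR 0 members were called for either term, where 0% of 13077 genes were called; 5 members had an unadjusted p below 0.05 for amyloid and 0 for Apoe. Limma called 0 members for both terms. The largest amyloid term was that of Ctsa, 0.89 (SE 0.21, p = 0.00455, adjusted p = 0.927). The amyloid terms of Ctsl (0.72), Ctsb (0.69), Ctsd (0.62) and Ctsz (0.57) were positive too, beside a median of 0.57 over all genes. This term was positive for 7 of 10 members and for 67.1% of the genes of at least 300 RPM (median 0.20). For Apoe loss the term of Ctsb was -0.57 (SE 0.25, adjusted p = 1.00), and 9 of 10 members were negative. Of the genes of at least 300 RPM 48.2% were positive for the Apoe term, with a median of -0.02. Over all genes its median was 0.33. Without C57BL/6-ApoeKO cortex, which leaves C57BL/6 with 8 positive cells as the group without amyloid, edgeR called 3.57% of genes for amyloid and 0 members.

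Within Cst7-negative cells alone the ratios of Ctsb, Ctsd and Ctsz were nearer to 1 than in all cells for amyloid with Apoe and for Apoe loss in amyloid cortex. In APP/PS1 against C57BL/6 cortex, Ctsb was at 3983 against 3131 RPM (ratio 1.27), Ctsd at 7377 against 5476 (1.35) and Ctsz at 3481 against 2525 (1.38), and 0 of 10 members passed 1.5-fold where 9.27% of 6053 genes were higher and 13.4% lower. In the other 6 comparisons 0 of 10 members passed the bound as well. The background for Apoe loss was 22.9% higher and 10.3% lower in amyloid cortex, 12.8% and 11.3% in amyloid hippocampus, and 9.67% and 8.3% without amyloid. It was 15.3% and 9.75% for amyloid without Apoe, 9.09% and 8.17% for hippocampus over cortex in APP/PS1, and 8.05% and 17.2% in APP/PS1-ApoeKO. In APP/PS1-ApoeKO against APP/PS1 cortex, Ctsz was at 0.686, Ctsd at 0.800 and Ctsb at 0.901 of the level with Apoe. Ctsl was further from 1 than in all cells there, at 1.19, and in hippocampus, at 1.25. The member median for hippocampus over cortex in APP/PS1-ApoeKO was 0.07 on the log2 scale in Cst7-negative cells and 0.03 in all cells.

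Within Cst7-positive cells, Ctsa (2.32-fold), Ctsd (2.17-fold), Ctsb (2.13-fold), Ctsl (2.05-fold) and Ctsz (1.85-fold) were higher in APP/PS1 than in C57BL/6 cortex, and Ctsc was lower (0.609). The background there was 35.7% of 6361 genes higher and 38.9% lower, and the C57BL/6 side rests on 8 cells. With Apoe lost in amyloid cortex, Ctsz (0.585), Ctsb (0.588) and Ctsd (0.596) were lower in Cst7-positive cells, where 24.2% of 6160 genes were lower and 37.3% higher. In hippocampus Ctsb (0.551), Ctsd (0.598), Ctsh (0.637) and Ctsz (0.652) were lower, where 21.6% of 6030 genes were lower and 40.5% higher. Among the Cst7-positive cells of ApoeKO mice, 1 member was higher and 1 lower with amyloid, Ctsa (1.64-fold) and Ctsc (0.650), against 28.6% of 6544 genes higher and 32.3% lower. Ctsb (1.10) and Ctsd (0.956) lay near 1 there. C57BL/6-ApoeKO against C57BL/6 gave 1 member higher, Ctsl (1.54-fold), and 1 lower, Ctsf (0.665), against 41.8% and 32.1% of genes. The tissue comparisons gave 0, where 19% of genes were higher and 30.1% lower in APP/PS1, and 28.1% and 32.3% in APP/PS1-ApoeKO.

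**Figure D4:**
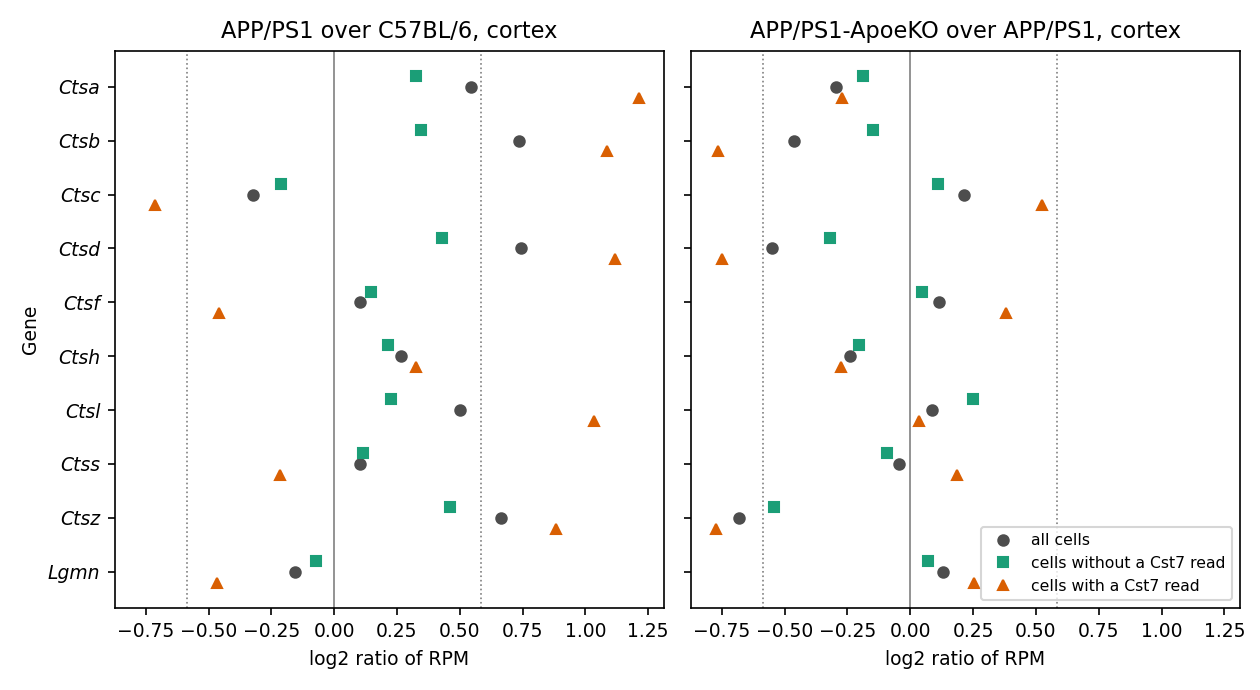
The log2 ratio of RPM between groups for each member, in all cells and in each Cst7 class; dotted lines mark 1.5-fold either way. In both comparisons Ctsb, Ctsd and Ctsz lie furthest from 0 in Cst7-positive cells and nearest to 0 in Cst7-negative cells.

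Most Cst7-positive cells had much Cst7. Between 1 and 9 cells a group had Cst7 above 0 and below 100 RPM, too few to describe. In cells at or above 100 RPM, 6 to 8 of 10 members were higher than in cells without Cst7 in the 5 groups with at least 10 such cells. These are nearly the same cells as all Cst7-positive ones, so the count adds little to the comparison above. The share of all genes higher in them was not counted. For Ctsb the levels at or above 100 RPM were 8937 (72 cells), 9936 (33), 5211 (22), 5283 (34) and 4777 RPM (32) in the APP/PS1, APP/PS1-ApoeKO and C57BL/6-ApoeKO groups, cortex before hippocampus.

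Across the cells of a group, Ctsb, Ctsd and Ctsz varied together most. The mean over 6 groups of the Spearman correlation was 0.50 for Ctsb and Ctsd (0.38 to 0.74 by group), 0.41 for Ctsb and Ctsz, and 0.39 for Ctsd and Ctsz. Of the 45 pairs of members 45 were above 0 on average, with a median of 0.13, and the lowest was that of Ctsf and Ctss, 0.04. The median was 0.02 over all pairs of a member with one of 2404 genes. These genes needed reads in at least 20% of cells in each group and were not matched to the members in level. The share of their pairs above 0 was not counted. Cells of a group share plates and depth, and each member's RPM correlated with the reads of the cell (0.18 to 0.33), so these are descriptions without a test.

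**Figure D5:**
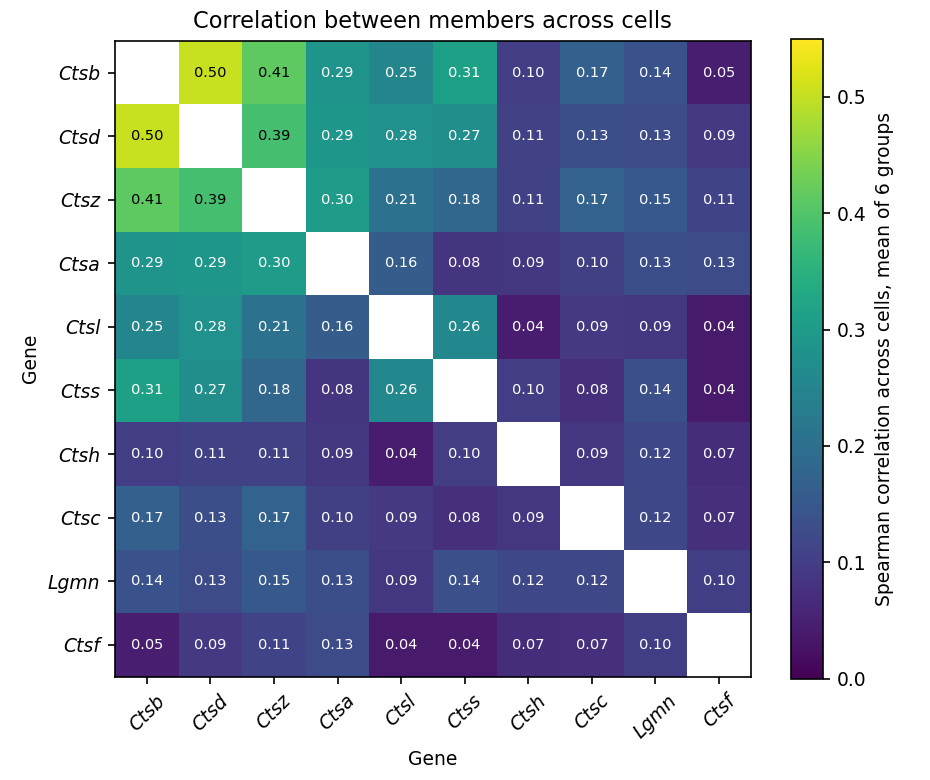
Spearman correlation between members across cells, in RPM per cell, as the mean of 6 groups. Ctsb, Ctsd and Ctsz form the block of the highest values (0.39 to 0.50), and Ctsf and Ctsh show the lowest.

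The genes most like each member across cells were other members in most cases for Ctsa, Ctsb, Ctsd, Ctsl and Ctsz. The nearest other genes were Lyz2, lysozyme, for Ctsb (0.35), and the tetraspanin Cd9 for Ctsd (0.35). Ctss was most like B2m (0.47), the light chain of MHC class I, Cst3 (0.45), cystatin C, and C1qb (0.44), a complement subunit. Among the genes most like Lgmn were Tmem119 (0.28) and Cx3cr1 (0.27), which mark microglia in the healthy brain. Among those most like Ctsf were Tmem119 (0.16) and Lag3 (0.14). Ctsh was most like Psap (0.15), Pld4 (0.14) and H2-D1 (0.13), and among the genes most like Ctsc were Ctsz (0.17) and Ctsb (0.17).

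The other lysosomal genes were counted by list in the Cst7 contrast. EdgeR called 0 genes in each of 5 lists. The list of other proteases also holds Asah1 and Naaa, which encode lipid amidases. Of its 9 genes tested, 8 were positive (median log2 0.36), 3 had an unadjusted p below 0.05, DESeq2 called 3 higher and limma 0. Asah1 (log2 0.36, unadjusted edgeR p = 0.00388) is among these 3 and is counted among the lipid hydrolases too. Of 32 membrane proteins, activators and pump subunits, 22 were positive (median 0.27), 10 had an unadjusted p below 0.05, DESeq2 called 8 higher and limma 0. Of 29 glycosidases and lipid hydrolases, 17 were positive (median 0.10), 4 had an unadjusted p below 0.05, DESeq2 called 2 higher and limma 0. Sorting and control genes (12 of 22 positive, 1 at an unadjusted p below 0.05, 1 lower by DESeq2, 0 by limma) and inhibitors (2 of 4 positive, 0, 0 and 0) were near balance. Cst3, an inhibitor named here after its values were seen, was at 59935 and 64258 RPM in the cortex and hippocampus of APP/PS1 mice and at 71188 in C57BL/6 cortex. It was at 43687, 47125 and 46132 RPM in the ApoeKO groups (amyloid cortex, amyloid hippocampus, then C57BL/6-ApoeKO cortex). For the knockout term over the 6 sums, 2 of 6 inhibitors tested were positive and 4 negative, with 2 at an unadjusted p below 0.05, 0 called by edgeR, and 1 higher and 1 lower by DESeq2. Of all 18171 genes, 1383 had an unadjusted edgeR p below 0.05 for this term, and DESeq2 called 503 higher and 442 lower.

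Other cells were looked for in each class by their markers. In Cst7-positive cells the microglia markers summed to 35716 to 48274 RPM, and in Cst7-negative cells to 42998 to 50777. Border-associated macrophage markers reached 48.6 RPM in the Cst7-positive cells of C57BL/6-ApoeKO cortex and at most 9.65 RPM in the other Cst7-positive sums, and Cd163 and Lyve1 were at 0 in each Cst7-positive sum. Oligodendrocyte markers reached 114.1 RPM and astrocyte markers 85.7 RPM in Cst7-positive cells, against at most 60.4 and 34.02 RPM in Cst7-negative cells. Of the 8 microglia markers 3 were positive in the Cst7 contrast (median log2 -0.10), with 2 at an unadjusted p below 0.05 and 0 called by edgeR, DESeq2 or limma. The 12 plaque-associated markers summed to 6645 to 13372 RPM in Cst7-positive and 5523 to 6968 RPM in Cst7-negative cells. Of 10 tested, 10 were positive with a median log2 change of 2.06, edgeR called 0 (4 at an unadjusted p below 0.05), DESeq2 6 and limma 2. The counts over all genes for this contrast are given with the lists above. The part of any of these markers in the member differences was not tested.

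Some member counts may hold reads of other genes. In GENCODE vM21 (GRCm38) Ctsa overlaps Neurl2 and Pltp, Ctsb overlaps Fdft1, Ctsc overlaps Gm26522, Ctss overlaps Hmgb1-ps5 and Ctsz overlaps Nelfcd. Ctsd lies on chromosome 7 from 142375911 to 142388038 (minus strand) and Lgmn on chromosome 12 from 102394084 to 102439813 (minus strand), without such an overlap.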

How the data were processed

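The deposited table holds whole-number read counts per gene and cell, and the submitters' processing notes name STAR 2.5.2, featureCounts 1.5.1, Seurat 2.3.1 and mm10 for what the authors did, without saying which step each served. Strand and overlap settings are not given in the sources used here. Used were the 1713 cells whose read total equals the label, with 68354 to 1320640 reads each. Counts were summed per group and per Cst7 class, the Cst7 row itself left out of the class test. Tests ran in edgeR 4.0.16 with TMM factors, with DESeq2 1.42.0 and limma 3.58.1 as alternatives. The class test and the knockout term were also run on simulated counts without other differences between groups. The class test made 1 false call there. The knockout term made 13 false calls, and recovered 33 of 100 genes set to differ 2-fold and 86 of 100 set to differ 8-fold. Exon lengths and positions are from GENCODE vM21 on GRCm38, the assembly of mm10. A call between 2 sums needs 1.5-fold. All 10 members are named, with, for each, the 3 genes of the highest mean within-group Spearman correlation and list genes past the Cst7 test, of which there were 0. One of the genes named by correlation is not reported here. Doublets were not searched for. The members and lists were chosen with earlier results of these data known.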

Additional observations from a re-analysis of the deposited data

Results flagged for a closer look

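The Cst7 difference of Ctsa went opposite ways by amyloid: it was positive in 4 of 4 groups with amyloid, with a mean log2 ratio of 0.57, and negative in 2 of 2 groups without, with a mean of -0.14. The edgeR interaction term was 0.89 (SE 0.21, p = 0.00455, adjusted p = 0.927). Over 8 alternatives it ran from 0.53 to 1.17. The median of this term over all genes tested was 0.57 in the main fit and 1.66 in the fit without C57BL/6-ApoeKO cortex.

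Ctsc went the other way, with a mean log2 ratio of -0.16 in the 4 groups with amyloid and 0.32 in the 2 without. Its edgeR interaction term was -0.30 (SE 0.25, adjusted p = 0.927), and it changed sign when cells were thinned to 100000 reads. The C57BL/6 side of both rests on 8 Cst7-positive cells. No group stood apart from the other 5 in the Cst7 ratio of any member by Dixon's test at the 95% level.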

How the results depend on the processing

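No paired analysis was possible because the replicate numbers only name wells and pair no well of a group with one of another. The Cst7 test itself compares the classes within each group, and within-lane ratios stand beside the 2 comparisons that share lanes. For the Cst7 contrast edgeR called 0.00765% of genes. This share was 10.4% with DESeq2 (4 members), 0.367% with limma, 2.63% with sums per lane (3 members), 0.0229% with DESeq2's size factors, 0.0174% with thinning and 0.0146% with the cells lacking a depth label added. It was 0% with library totals, with groups of at least 20 positive cells (the same fit as without C57BL/6 cortex), and without any 1 group (0% to 0%). For amyloid within this contrast, leaving out 1 group gave 0% to 3.57% of genes. In the 6 sums DESeq2 called 5.201% of genes for the knockout, 1.75% for amyloid and 0.875% for hippocampus. EdgeR called 0.011% higher and 0.0165% lower for the knockout, and in both directions 0.121% with thinning and 0% to 0% without 1 group. The cause of these differences was not tested.

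Among members 1.5-fold apart, TMM factors gave 3 for Apoe loss in amyloid cortex (median -0.397) and 5 for amyloid with Apoe (median 0.499), and a median of 0.2165 between APP/PS1-ApoeKO tissues. Cell medians gave 2 members for Apoe loss in amyloid cortex, Ctsz and Ctsf, and 1, Ctsf, for Apoe loss in amyloid hippocampus (median -0.0206). They gave 1 each, again Ctsf, for Apoe loss without amyloid, amyloid without Apoe and both tissue comparisons. For amyloid with Apoe they gave a median of 0.278. A 2-fold bound left 0 members in Apoe loss in amyloid cortex and 0 in amyloid with Apoe, and the added cells gave a median of -0.256 in the former. In Cst7-positive cells, thinning gave a median of 0.2416 for amyloid without Apoe. Ctsf was read in 48.5% to 56.6% of cells, and its cell median was 0 to 82.5 RPM by group. What depth adds to this was not tested.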
